A study of Mus musculus with 8 samples.

Results

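In samples of mouse peritoneal macrophages, C498 raised a small set of HIF-1 target transcripts steeply; among 22 glycolysis transcripts it raised 2 and lowered 1 against vehicle, a share near that of all tested genes. Vegfa rose 6.97-fold and Ndrg1 rose 9.02-fold over vehicle in the mean TPM of 2 samples each, and they rose 7.67-fold and 10.2-fold over LPS when LPS followed. LPS moved the genes in both directions: it raised Slc2a1, Hk2, Pfkp and Eno2, and it lowered Pfkl, Pfkfb4, Vegfa and Mxi1. The rises of Slc2a1, Hk2 and Eno2 did not pass the test in every alternative fit, as given below. Summed fibroblast and mesothelial marker levels were also higher, and summed macrophage marker levels lower, in the samples given C498, and their part in the C498 results was not tested.

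The 33 genes described here were chosen by symbol and fall into 22 genes of glucose uptake and glycolysis and 11 genes made of Hif1a itself and targets of the hypoxia-inducible factor HIF-1. They were taken from a table of 55801 genes; 1 symbol, Aldoa, stood on more than 1 line, and the line with the highest mean was used. All 33 passed the filter for testing, a mean of at least 1 TPM over the samples, as did 12189 genes in all. TPM is a transcript level scaled by length, and it sums to the same fixed total in each sample.

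Glycolysis turns 1 glucose into pyruvate through a chain of enzymes, and lactate dehydrogenase and a lactate exporter carry the end product away. HIF-1 is a pair of a regulated subunit, HIF-1α (Hif1a), and a constant partner; in oxygen the prolyl hydroxylases (Egln1, Egln3) mark HIF-1α for destruction, and without that mark HIF-1 binds DNA and switches on glycolytic genes, the angiogenic factor Vegfa and others. In macrophages, LPS is known to raise Hif1a through NFκB and to shift metabolism towards glycolysis.

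The cells were peritoneal macrophages drawn by thioglycollate, collected 72 h after its injection into male C57BL/6 mice 6 to 8 weeks old according to the methods of the study. Thioglycollate elicits inflammatory cells, so every group, controls included, started from elicited cells. The 4 groups of 2 samples each were NC (vehicle), LPS (vehicle, then lipopolysaccharide at 100 ng/ml), C498 (15 µM) and C498+LPS (15 µM C498, then LPS). C498 is a compound that the study took from a screen for inhibitors of JAK/STAT and NFκB reporters. It or vehicle was given for 0.5 h, and the LPS step lasted another 4 h. No source says whether the samples of a group came from separate mice or cultures, so the spread between them may be technical. The number of reads behind each value is unknown, because TPM keeps no depth.

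Tests used limma on log2(TPM + 1) across all 12189 genes, and a gene is called changed where its p, adjusted by the Benjamini-Hochberg method, was 0.05 or less; a log2 change on this scale understates the change of low genes. With 2 samples against 2, an exact two-sided permutation test of 1 gene could not give less than 0.333, so none was run. The NC samples differed most from each other: the median absolute log2 difference between replicates was 0.29 over tested genes, against 0.13 to 0.18 in the other groups. Among the 33 genes this showed most in Hif1a, Pfkfb3, Eno2 and Hk2, which were 0.54 to 0.88 higher on the log2 scale in NC replicate 1. LPS also moved the median tested gene by -0.17 without C498 and by -0.18 with it. Centring each sample on its median gene removes that shift and turns the split of calls over all genes in LPS vs NC from 1200 higher and 2409 lower to 1775 higher and 1458 lower, and in C498+LPS vs C498 from 550 and 1430 to 968 and 649. The same centring changes the split from 1132 and 754 to 1132 and 1211 in C498 vs NC, where it lowers the median gene from 0.01 to -0.11, and from 1107 and 938 to 1077 and 1304 in C498+LPS vs LPS.

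The samples carried macrophage markers at 12420 to 20590 TPM summed over 8 genes, and all 8 were tested. This sum was 20099 to 20590 TPM in NC, 17938 to 18472 in LPS, 15939 to 16075 in C498 and 12420 to 14208 in C498+LPS. Most of it was Lyz2, and its members did not move as 1: in C498 against NC Cd14 was higher (1.47) and Lyz2 (-0.48) and Fcgr1 (-0.87) were lower, in C498+LPS against LPS Cd14 was higher and 4 were lower, and Cd68 was called in neither. LPS against NC raised Cd14 by 2.41, and Csf1r and Fcgr1 were called lower. Neutrophil markers summed to 82.4 to 134.8 TPM in NC, 97.6 to 123.03 in LPS, 52.6 to 55.9 in C498 and 72.3 to 81.6 in C498+LPS; 3 of 10 were tested, S100a8 (-0.94) and Retnlg (-1.64) were lower in C498 than in NC, and Retnlg was lower in C498+LPS than in LPS. Fibroblast markers (Col1a1, Col1a2, Col3a1, Dcn, Lum and Pdgfra) summed to 150.3 to 192.4 TPM in NC and 175.9 to 200.5 in LPS, but to 633.2 to 750.04 in C498 and 618.1 to 910.8 in C498+LPS. Of these 6, 5 were tested; all 5 were higher in C498 than in NC and 4 were higher in C498+LPS than in LPS, with Dcn up by 1.99 and 2.13 on the log2 scale. Mesothelial markers summed to at most 5.9 TPM without C498 and to 16.3 to 25.9 TPM with it, and 2 of the 4 tested were higher in both C498 comparisons. The part of macrophage, neutrophil, fibroblast or mesothelial RNA in any of the C498 results was not tested. In bulk samples fewer cells of a type and less RNA per cell cannot be told apart.

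Of the 11 genes of the HIF-1 group, C498 raised 6 and lowered 0 against NC: Vegfa, Ndrg1, Ddit4, P4ha2, Egln3 and P4ha1. Over all tested genes 9.29% were called higher and 6.19% lower in this comparison, and the median log2 change was 0.83 in the group against 0.01 over all genes. In C498+LPS against LPS, 6 of 11 were again higher and 0 lower, with Mxi1 in place of P4ha1, where the background was 9.08% higher and 7.7% lower; the group median was 0.97 against 0.01 over all genes. At a fold change of at least 2 as well, the group kept 4 and 5 calls, against 7% and 7.57% of all tested genes. With samples centred, or with quantile normalization, C498 vs NC had 7 higher and 1 lower, the added genes being Hif1a and, lower, Egln1, and C498+LPS vs LPS kept 6 and 0. Without C498 replicate 2, 3 were left in C498 vs NC, and without LPS replicate 2 or C498+LPS replicate 2, 3 were left in C498+LPS vs LPS; Vegfa, Ndrg1 and Ddit4 were called in each of these.

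LPS against NC called 3 of the 11 higher (Hif1a, P4ha1 and Ndrg1) and 3 lower (Egln1, Vegfa and Mxi1), with a median of 0.17, where 9.84% of all tested genes were higher and 19.8% lower. These 3 higher calls were small and rested on all samples: without NC replicate 2, either LPS sample, either C498 sample or either C498+LPS sample, none of the 3 was called and 2 or 3 lower calls were left. For P4ha1 the LPS change was 0.41 (adjusted p = 0.0367, and 0.0558 to 0.185 without those samples).

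Vegfa encodes the main angiogenic growth factor and is a classical HIF-1 target. Its level was 24.3 and 17.2 TPM in NC, 8.42 and 8.58 in LPS, 145.06 and 143.6 in C498, and 63.8 and 66.6 in C498+LPS. No group overlapped another: both C498 samples stood highest, the LPS samples lowest, and the combined samples between C498 and NC. The log2 change with C498 was 2.76 ± 0.16 (SE; adjusted p = 0.000149) without LPS and 2.80 ± 0.16 (adjusted p = 0.000279) with it. LPS lowered Vegfa by a log2 change of -1.17 ± 0.16 (adjusted p = 0.00202) without C498 and of -1.13 ± 0.16 (adjusted p = 0.00484) with it, and the second of these was not called without C498 replicate 1 (adjusted p = 0.0562) or without C498 replicate 2 (adjusted p = 0.0545). The difference of the differences was 0.04 (adjusted p = 0.965).

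Ndrg1, a stress-induced gene that hypoxia raises in many cells, was at 8.85 and 7.49 TPM in NC, 12.3 and 10.7 in LPS, 72.01 and 75.4 in C498, and 108.9 and 124.6 in C498+LPS. The 4 groups did not overlap and each C498 group lay far above its control. C498 raised it by 3.03 ± 0.13 (adjusted p = 3.94e-05) and, with LPS, by 3.24 ± 0.13 (adjusted p = 7.01e-05). LPS raised it by 0.45 ± 0.13 (adjusted p = 0.0417) and, with C498, by 0.65 ± 0.13 (adjusted p = 0.0193), so that Ndrg1 was highest with both agents. The 2 LPS calls were weak: that against NC was lost without any 1 of NC replicate 2 or either sample of the LPS, C498 or C498+LPS groups (adjusted p 0.0596 to 0.2), and that against C498 without any 1 of the 4 samples compared (adjusted p 0.0571 to 0.127). The C498 calls held in all of the alternatives run.

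Ddit4 (REDD1), an inhibitor of mTORC1 that responds to hypoxia and to other stresses, was at 4.38 and 5.35 TPM in NC, 5.61 and 6.14 in LPS, 24.3 and 27.9 in C498, and 29.7 and 38.4 in C498+LPS. All 4 samples with C498 lay above all 4 without it. The log2 change was 2.21 ± 0.18 (adjusted p = 0.000518) against NC and 2.34 ± 0.18 (adjusted p = 0.000617) against LPS.

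The collagen prolyl hydroxylase subunits P4ha1 and P4ha2, which modify proline residues of procollagen, were both called higher in C498 against NC. P4ha2 was at 3.12 and 4.02 TPM in NC, 5.78 and 4.64 in LPS, 9.52 and 13.3 in C498, and 14.6 and 17.6 in C498+LPS, a log2 change of 1.43 ± 0.22 (adjusted p = 0.00746) and 1.46 ± 0.22 (adjusted p = 0.00568). P4ha1 was at 44.95 and 39.2 TPM in NC, 58.9 and 53.2 in LPS, 58.3 and 64.05 in C498, and 63.5 and 68.1 in C498+LPS. Its rise with C498 was 0.53 ± 0.12 (adjusted p = 0.0252) against NC, while against LPS it was 0.23 ± 0.12 (adjusted p = 0.234). The P4ha2 call against NC was lost without C498 replicate 2 (adjusted p = 0.0698), and that against LPS without LPS replicate 2 (adjusted p = 0.0606) or C498+LPS replicate 2 (adjusted p = 0.0617). The P4ha1 call was lost without NC replicate 2 (adjusted p = 0.0716), C498 replicate 1 (adjusted p = 0.0961) or C498 replicate 2 (adjusted p = 0.145). Fibroblasts, whose markers rose in the same samples, are rich in collagen-modifying enzymes, and their part in these 2 genes was not tested.

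The oxygen sensors Egln3 and Egln1 were called in different comparisons. Egln3, the hydroxylase most readily induced by HIF-1, was at 3.71 and 2.99 TPM in NC, 2.99 and 2.64 in LPS, 6.96 and 7.78 in C498, and 7.16 and 11.6 in C498+LPS. All 4 samples with C498 lay above all 4 without, with a log2 change of 0.95 ± 0.24 (adjusted p = 0.0407) and 1.41 ± 0.24 (adjusted p = 0.00926). Egln1, the main hydroxylase in most cells, was at 22.3 and 21.5 TPM in NC, 16.4 and 13.9 in LPS, 16.9 and 17.1 in C498, and 15.3 and 14.8 in C498+LPS. It fell with LPS by a log2 change of -0.51 ± 0.13 (adjusted p = 0.024), though not with samples centred on their median gene (-0.34, adjusted p = 0.0874), and its change with C498 was -0.35 ± 0.13 (adjusted p = 0.115). The Egln3 call against NC was lost without NC replicate 2, either LPS sample or either C498 sample (adjusted p 0.0805 to 0.192), and that against LPS without either LPS sample (adjusted p 0.0624 and 0.076) or C498+LPS replicate 2 (adjusted p = 0.0574). The Egln1 call was lost without either LPS or either C498 sample (adjusted p 0.0506 to 0.142).

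Hif1a, the regulated subunit, stood at 53.8 and 28.8 TPM in NC, 83.3 and 66.05 in LPS, 74.04 and 67.4 in C498, and 102.5 and 98.8 in C498+LPS. The NC samples were lowest and far apart, and the combined samples were highest. LPS raised it by 0.90 ± 0.26 (adjusted p = 0.0406), but this was called only with all samples or without NC replicate 1, and without NC replicate 2 it came to 0.45 (adjusted p = 0.073); leaving out any other sample gave adjusted p of 0.08 to 0.21. With C498 the change was 0.83 ± 0.26 (adjusted p = 0.0777) without LPS and 0.44 ± 0.26 (adjusted p = 0.317) with it. The first of these passed the threshold when the replicate number was a block (adjusted p = 0.0301) and when samples were centred (0.71, adjusted p = 0.0403).

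Mxi1, a MAX partner that opposes MYC, was at 25.5 and 19.8 TPM in NC, 9.18 and 7.94 in LPS, 28.9 and 27.5 in C498, and 16.8 and 18.8 in C498+LPS. LPS lowered it by a log2 change of -1.30 ± 0.16 (adjusted p = 0.00138), and by -0.64 ± 0.16 (adjusted p = 0.0365) with C498. Against LPS alone, C498+LPS was higher by 0.97 ± 0.16 (adjusted p = 0.00783), whereas C498 against NC gave 0.31 ± 0.16 (adjusted p = 0.223), and the difference of these was 0.66 (adjusted p = 0.35). The rise over LPS was lost without LPS replicate 2 (adjusted p = 0.0709) or C498+LPS replicate 2 (adjusted p = 0.0703). The fall with LPS in the presence of C498 was lost without any 1 sample of the LPS, C498 or C498+LPS groups (adjusted p 0.0675 to 0.187) and with centring (-0.42, adjusted p = 0.0538).

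The other 2 genes of the group did not pass in any comparison. Bnip3, a mitophagy receptor that is a standard HIF-1 target, ranged from 11.4 to 19.06 TPM and gave 0.37 (adjusted p = 0.184) and 0.45 (adjusted p = 0.118) with C498. Ankrd37 ranged from 1.69 to 4.5 TPM; its exons overlap those of Ufsp2 on the opposite strand, which averaged 27.1 TPM, and the sources do not say whether strand was used in counting.

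**Figure D1:**
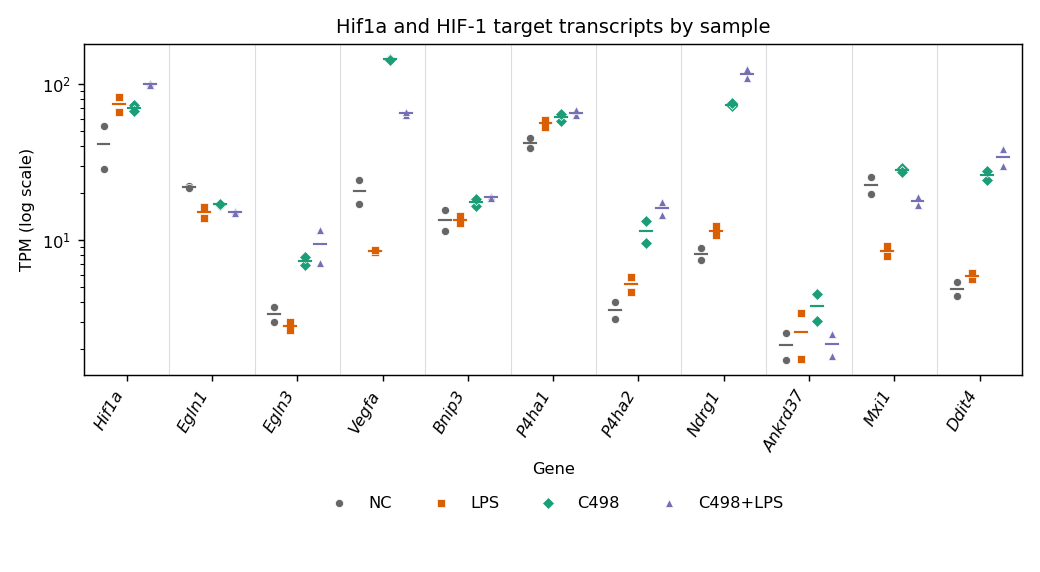
Each point is the TPM of 1 sample on a log axis, with a short bar at the mean of the 2 samples of a group, for Hif1a and the 10 HIF-1 target genes. The C498 and C498+LPS points of Vegfa, Ndrg1, Ddit4, P4ha2 and Egln3 lie above all NC and LPS points, and the LPS points of Vegfa and Mxi1 lie lowest.

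HIF-1 binds a core motif that is ACGTG or GCGTG. Reference sequence for the 250 bases before the annotated start (RefSeq, GRCm38.p6) was searched for both forms on both strands; CACGTG, a palindrome bound by many other factors, holds ACGTG on each strand and so counts as 2 matches. At least 1 window held a match in 19 of 22 glycolysis genes (86.4%) and in 10 of the 10 HIF-1 group genes that have a window, against 62.2% of tested genes with a window and 41.5% of all genes with a window. Genes with several annotated starts, such as Pfkm, Eno1, Aldoa and Mxi1, had more windows and so more chances of a match. The shares make no allowance for this. Vegfa counts only through its inner start, whose window lies within the gene. CACGTG was found in 13.6% and 20% of the 2 groups and in 10.2% of tested genes. Of the 6 genes called higher with C498 in both comparisons, 5 have windows and are shown to let the matches be read against the values above; Ndrg1 (chromosome 15, 66929318 to 66969640, minus strand, GRCm38) has no entry. Capitals mark ACGTG or GCGTG, or the reverse complement of either where the match is on the other strand, and each line reads 5′ to 3′ on the gene's strand towards the start.
Slc2a1, chr4:119108495-119108744, plus strand: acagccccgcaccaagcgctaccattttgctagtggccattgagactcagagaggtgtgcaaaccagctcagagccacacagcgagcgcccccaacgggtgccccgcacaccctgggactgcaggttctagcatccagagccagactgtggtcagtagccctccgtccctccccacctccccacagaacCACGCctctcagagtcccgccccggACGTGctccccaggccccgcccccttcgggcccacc
Vegfa outer start, chr17:46032378-46032627, minus strand: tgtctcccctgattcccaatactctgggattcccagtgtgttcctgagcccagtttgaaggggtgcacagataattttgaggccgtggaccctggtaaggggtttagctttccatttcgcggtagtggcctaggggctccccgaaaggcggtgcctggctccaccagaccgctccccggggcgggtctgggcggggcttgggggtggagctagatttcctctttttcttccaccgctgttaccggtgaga
Vegfa inner start, chr17:46025164-46025413, minus strand: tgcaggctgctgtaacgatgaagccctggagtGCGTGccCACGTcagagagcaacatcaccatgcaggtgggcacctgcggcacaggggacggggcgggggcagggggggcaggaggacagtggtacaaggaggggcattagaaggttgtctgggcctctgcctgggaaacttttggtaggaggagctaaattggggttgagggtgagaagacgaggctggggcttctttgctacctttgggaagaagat
P4ha2, chr11:54100674-54100923, plus strand: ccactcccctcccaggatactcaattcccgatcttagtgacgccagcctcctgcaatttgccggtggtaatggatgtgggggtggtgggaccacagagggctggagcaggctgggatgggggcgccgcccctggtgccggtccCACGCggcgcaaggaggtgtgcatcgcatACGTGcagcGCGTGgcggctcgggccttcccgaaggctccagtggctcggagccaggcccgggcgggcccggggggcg
Egln3, chr12:54203875-54204124, minus strand: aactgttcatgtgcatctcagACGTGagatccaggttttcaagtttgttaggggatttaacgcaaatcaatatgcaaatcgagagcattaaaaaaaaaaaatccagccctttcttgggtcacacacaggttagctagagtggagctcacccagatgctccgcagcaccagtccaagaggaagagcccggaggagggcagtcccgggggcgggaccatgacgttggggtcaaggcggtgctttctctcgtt
Ddit4, chr10:59951771-59952020, minus strand: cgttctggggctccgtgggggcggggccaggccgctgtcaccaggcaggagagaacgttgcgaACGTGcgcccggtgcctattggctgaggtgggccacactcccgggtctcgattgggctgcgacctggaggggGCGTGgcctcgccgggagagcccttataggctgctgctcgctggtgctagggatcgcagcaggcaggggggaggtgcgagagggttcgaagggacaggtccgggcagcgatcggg
Ldha, chr7:46845554-46845803, plus strand: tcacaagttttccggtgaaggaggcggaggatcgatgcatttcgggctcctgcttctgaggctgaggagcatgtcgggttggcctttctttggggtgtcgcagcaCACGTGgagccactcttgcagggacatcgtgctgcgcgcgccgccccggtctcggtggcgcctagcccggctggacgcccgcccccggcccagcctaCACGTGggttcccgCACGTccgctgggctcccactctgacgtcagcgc

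Slc2a1, Ddit4 and the inner Vegfa start had 1 ACGTG and 1 GCGTG each, P4ha2 had 1 ACGTG and 2 GCGTG, and Egln3 had 1 ACGTG. The window before the outer Vegfa start had no match, which says only that these letters are not in those 250 bases. Ldha is shown as 1 further example, and 1 gene cannot tell whether matches go with the change. Its outer start had 5 ACGTG matches, 2 CACGTG sites among them, and its other start, not shown, had 1 GCGTG. The Ldha transcript gave a log2 change with C498 of -0.01 (adjusted p = 0.932). A match in these letters is not a binding site.

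Among the 22 glycolysis genes, C498 raised Slc2a1 and Hk2 and lowered Pfkfb4 against NC, 2 higher and 1 lower, against 9.29% higher and 6.19% lower of all tested genes, and only Slc2a1 was called in C498+LPS against LPS, against 9.08% and 7.7%. In neither comparison was the share of the 22 above that of all tested genes, in either direction. The median log2 change over the 22 was -0.02 and 0.0008, against 0.01 over all tested genes in both comparisons. With quantile normalization the calls were 2 higher and 2 lower against NC, Eno1 being added, and 2 higher and 1 lower against LPS, Hk2 and, lower, Pfkfb4 being added. Without NC replicate 1 there were 5 calls against NC and without either C498 sample 1, and against LPS there were 3 without either NC sample. Slc2a1, which encodes the glucose transporter GLUT1, was at 49.8 and 46.7 TPM in NC, 72.2 and 67.3 in LPS, 101.4 and 100.9 in C498, and 106.7 and 97.03 in C498+LPS. NC was lowest, LPS was next, and both groups with C498 were highest and overlapped each other. The log2 change with C498 was 1.05 ± 0.10 (adjusted p = 0.000899) without LPS and 0.54 ± 0.10 (adjusted p = 0.0109) with it. LPS raised Slc2a1 by 0.52 ± 0.10 (adjusted p = 0.00716) in vehicle, while after C498 the change was 0.01 ± 0.10 (adjusted p = 0.969); the difference of the differences was -0.51 (adjusted p = 0.229). The call against LPS was lost without LPS replicate 1 (adjusted p = 0.0538), LPS replicate 2 (adjusted p = 0.0813) or C498+LPS replicate 1 (adjusted p = 0.0512), and the LPS call without LPS replicate 1 (adjusted p = 0.0547).

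Hk2, the hexokinase that HIF-1 and growth signals induce, was at 35.1 and 23.9 TPM in NC, 55.5 and 53.4 in LPS, 49.3 and 51.07 in C498, and 82.4 and 71.1 in C498+LPS. NC was lowest and the combined group highest, with LPS just above C498. C498 raised it by 0.77 ± 0.18 (adjusted p = 0.0288) and LPS by 0.89 ± 0.18 (adjusted p = 0.00972); C498+LPS against LPS gave 0.48 ± 0.18 (adjusted p = 0.112), and on top of C498, LPS gave 0.60 ± 0.18 (adjusted p = 0.0612). The C498 call held only with all samples or without NC replicate 1 (otherwise adjusted p 0.0529 to 0.149). The LPS call was lost without LPS replicate 1 (adjusted p = 0.0687) or LPS replicate 2 (adjusted p = 0.0571).

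Hk3, the most abundant hexokinase here on this per-length scale, was at 396.1 and 384.9 TPM in NC, 376.2 and 341.2 in LPS, 428.97 and 419.3 in C498, and 317.6 and 291.01 in C498+LPS. The combined group lay below all other samples, -0.48 ± 0.09 (adjusted p = 0.0129) against C498; this call was lost without C498 replicate 1 (adjusted p = 0.0944), C498 replicate 2 (adjusted p = 0.0843) or C498+LPS replicate 2 (adjusted p = 0.0758), and with centring the change was -0.26 (adjusted p = 0.201). As a share of the summed TPM of Hk1, Hk2 and Hk3, Hk2 took 5.39 to 7.46% in NC, 9.66 to 10.1% in C498, 11.6 to 12.3% in LPS and 18.2 to 18.8% in C498+LPS, and the groups did not overlap.

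Phosphofructokinase commits sugar to glycolysis, and its isoforms moved in opposite directions with LPS. Pfkl, the liver-type isoform, was at 59.9 and 54.5 TPM in NC, 35.97 and 35.8 in LPS, 50.1 and 55.4 in C498, and 39.8 and 36.8 in C498+LPS. Pfkp, the platelet-type isoform, was at 46.01 and 36.8 TPM in NC, 88.97 and 70.4 in LPS, 54.2 and 53.1 in C498, and 68.7 and 63.1 in C498+LPS. LPS lowered Pfkl by a log2 change of -0.66 ± 0.11 (adjusted p = 0.00456) and raised Pfkp by 0.93 ± 0.15 (adjusted p = 0.00442), and both passed the adjusted p threshold with samples centred too (-0.49 and 1.09). Both changes were under 2-fold.

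As shares of the summed TPM of Pfkl, Pfkm and Pfkp, Pfkp took 39.2 to 42.3% in NC, 65.1 to 69.5% in LPS, 47.7 to 50.6% in C498 and 62.0 to 62.3% in C498+LPS. Pfkp was the larger share in both LPS groups and the smaller in NC. With C498 present, the LPS change was -0.45 ± 0.11 for Pfkl (adjusted p = 0.0324) and 0.29 ± 0.15 for Pfkp (adjusted p = 0.235). The difference of the differences for Pfkp was -0.63 (adjusted p = 0.349). The Pfkl call with C498 present was lost without any 1 sample of the LPS, C498 or C498+LPS groups (adjusted p 0.0665 to 0.182) and with centring (-0.24, adjusted p = 0.224). Exons of Pfkp overlap Pitrm1 on the opposite strand, which averaged 24.0 TPM. Pfkm, the muscle type, ranged from 1.82 to 3.07 TPM, and its exons overlap Senp1 on the opposite strand, which averaged 9.06 TPM.

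The bifunctional enzymes Pfkfb3 and Pfkfb4 set fructose 2,6-bisphosphate, the activator of phosphofructokinase. Pfkfb4 was at 20.3 and 18.6 TPM in NC, 7.89 and 7.55 in LPS, 9.39 and 10.2 in C498, and 5.97 and 5.66 in C498+LPS. All groups were separate, with NC highest. LPS lowered it by a log2 change of -1.23 ± 0.14 (adjusted p = 0.00104) and C498 by -0.92 ± 0.14 (adjusted p = 0.00735). After C498 the LPS change was -0.66 ± 0.14 (adjusted p = 0.0216), and in C498+LPS against LPS the change was -0.36 ± 0.14 (adjusted p = 0.136). The C498 call was lost without C498 replicate 1 (adjusted p = 0.0774) or C498 replicate 2 (adjusted p = 0.0568); the LPS call after C498 was lost without any 1 sample of the LPS, C498 or C498+LPS groups (adjusted p 0.0539 to 0.15) and with centring (-0.45, adjusted p = 0.0619). Pfkfb3, the inducible isoform of inflammatory cells, ranged from 22.5 to 42.3 TPM and was called in no comparison; its NC samples, 41.6 and 22.5 TPM, spanned nearly all of that range.

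**Figure D2:**
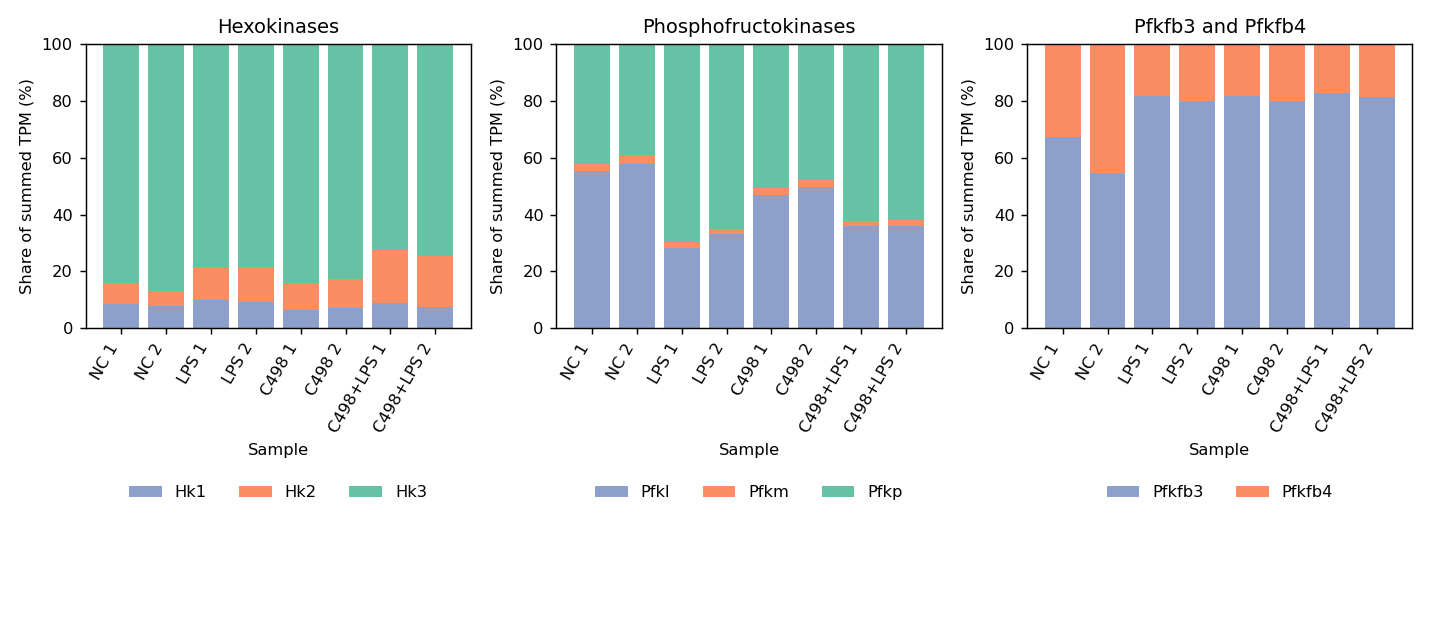
Stacked bars give, for each of the 8 samples, the share of the summed TPM taken by each hexokinase, phosphofructokinase and Pfkfb isoform. The Hk2 share is highest in C498+LPS at 18.2 to 18.8%, and the Pfkp share passes 60% in each LPS-treated sample but not in NC or C498.

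LPS against NC called 12 of the 22 glycolysis genes, 5 higher and 7 lower, against the same 9.84% and 19.8% of all tested genes; at a fold change of at least 2 as well only Pfkfb4 was left, against 12.2% of all. The group median was -0.18, close to the -0.17 of all tested genes. The 5 higher were Slc2a1, Hk2, Pfkp, Eno2 and Slc16a3, and the 7 lower were Pfkfb4, Pfkl, Tpi1, Gpi1, Pgam1, Pkm and Eno1. With samples centred on their median gene the same 5 stayed higher, but only Pfkl and Pfkfb4 stayed lower, so relative to the median gene the lower levels of Gpi1, Tpi1, Pgam1, Eno1 and Pkm were not called; with quantile normalization 5 were higher and 8 lower. Without LPS replicate 1 there were 3 calls, and without LPS replicate 2 there were 5.

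The falls in the trunk of the pathway were shallow at high levels. Gpi1, which turns glucose 6-phosphate into fructose 6-phosphate, was at 247.5 and 295.4 TPM in NC, 200.6 and 206.7 in LPS, 255.8 and 270.3 in C498, and 200.5 and 231.8 in C498+LPS. Tpi1, triosephosphate isomerase, was at 344.3 and 407.6 TPM in NC, 269.4 and 272.9 in LPS, 347.9 and 357.9 in C498, and 289.9 and 272.97 in C498+LPS. In both genes the LPS samples lay below the NC samples, by -0.41 ± 0.11 (adjusted p = 0.035) for Gpi1 and -0.46 ± 0.10 (adjusted p = 0.0124) for Tpi1. Exons of Tpi1 overlap Spsb2 on the opposite strand, which averaged 39.998 TPM. Centred, the changes were -0.24 (adjusted p = 0.41) and -0.30 (adjusted p = 0.268). The Gpi1 call was lost without NC replicate 2 or any 1 LPS or C498 sample (adjusted p 0.0673 to 0.152), and the Tpi1 call without either LPS sample (adjusted p 0.0744 and 0.0656).

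In the lower part of the pathway, Eno1, the main enolase, was at 912.06 and 991.3 TPM in NC, 778.98 and 793.7 in LPS, 805.4 and 811.1 in C498, and 707.5 and 738.3 in C498+LPS. Pkm, pyruvate kinase, was at 1550.9 and 1679.2 TPM in NC, 1275.5 and 1294.5 in LPS, 1676.3 and 1731.8 in C498, and 1293.5 and 1286.8 in C498+LPS. The LPS samples were below NC in both, by -0.27 ± 0.08 (adjusted p = 0.0348) and -0.33 ± 0.08 (adjusted p = 0.0168), and Pkm fell by a log2 change of -0.40 ± 0.08 (adjusted p = 0.0148) with C498 present. Exons of Pkm overlap Gm49759 on the same strand, which averaged 15.6 TPM. Centred, the LPS changes were -0.11 (adjusted p = 0.678) for Eno1 and -0.16 (adjusted p = 0.521) for Pkm, and the Pkm change with C498 present was -0.19 (adjusted p = 0.513). The Eno1 call was lost without NC replicate 2 or any 1 LPS or C498 sample (adjusted p 0.0717 to 0.154), the Pkm call against NC without either LPS sample (adjusted p 0.103 and 0.0851), and the Pkm call against C498 without any 1 of the 4 samples compared (adjusted p 0.0627 to 0.119).

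Pgam1, phosphoglycerate mutase, was at 692.9 and 644.5 TPM in NC, 531.3 and 527.4 in LPS, 649.1 and 643.97 in C498, and 560.9 and 526.95 in C498+LPS. It changed with LPS by -0.34 ± 0.08 (adjusted p = 0.0169), or -0.17 (adjusted p = 0.334) when centred, and the call was lost without either LPS sample (adjusted p 0.0846 and 0.0889). Its value is uncertain, because a processed copy was listed at up to 41.7% of the Pgam1 level in the same sample and reads may have been split between them. Aldoa, the main aldolase, was at 1800.09 and 1872.8 TPM in NC, 1629.9 and 1600.6 in LPS, 1841.6 and 1772.6 in C498, and 1483.5 and 1406.8 in C498+LPS. Only its change with LPS after C498 was called, -0.32 ± 0.07 (adjusted p = 0.0289), and that call was lost without any 1 sample of the LPS, C498 or C498+LPS groups (adjusted p 0.0691 to 0.179) and with centring (-0.11, adjusted p = 0.702).

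Eno2, the neuron-type enolase, rose with LPS from a low base. It was at 23.2 and 14.9 TPM in NC, 32.91 and 32.92 in LPS, 21.8 and 23.8 in C498, and 38.4 and 28.5 in C498+LPS. The LPS change was 0.79 ± 0.22 (adjusted p = 0.0342), lost without NC replicate 2 (0.48, adjusted p = 0.0999) or any 1 LPS or C498 sample (adjusted p 0.0706 to 0.14). Slc16a3, the lactate exporter MCT4, was at 44.8 and 48.6 TPM in NC, 67.9 and 60.9 in LPS, 50.4 and 52.8 in C498, and 51.6 and 51.5 in C498+LPS. It stood highest in LPS alone and close together in both C498 groups. LPS raised it by 0.45 ± 0.10 (adjusted p = 0.0153; without LPS replicate 1, adjusted p = 0.0986), while after C498 it was 51.6 and 51.5 TPM with LPS against 50.4 and 52.8 without, and the difference of the differences was -0.46 (adjusted p = 0.32).

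The 8 other glycolysis genes were called in no comparison: Hk1, Pfkm, Pfkfb3, Aldoc, Gapdh, Pgk1, Ldha and Pdk1. With Bnip3 and Ankrd37 they make the 10 of 33 genes with no call, whose log2 changes lay between -0.73 and 0.60 and whose adjusted p lay between 0.0883 and 0.985. Gapdh, to which the study scaled its RT-PCR, was the most abundant of them at 1935.08 to 2660.8 TPM; its log2 change was -0.18 with LPS (adjusted p = 0.336), -0.04 with C498 (adjusted p = 0.851) and 0.02 in C498+LPS against LPS (adjusted p = 0.939). Ldha, which makes lactate, ranged from 784.98 to 951.9 TPM, and Pgk1 ranged from 326.9 to 384.6 TPM. Pdk1, a kinase that holds pyruvate back from the mitochondria and a standard HIF-1 target, ranged from 2.34 to 4.55 TPM and changed by -0.02 with C498 (adjusted p = 0.971).

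The 17 enzymes from hexokinase to lactate dehydrogenase summed to 9561 and 10387 TPM in NC, 8425 and 8812 in LPS, 9775 and 9931 in C498, and 8417 and 8381 in C498+LPS. The sum was thus lower in both groups given LPS than in both groups without it, and the C498 samples fell between the NC samples. The ratio of group means was -0.21 on the log2 scale with LPS alone and -0.23 with LPS after C498, close to the -0.17 and -0.18 of the median tested gene. It made up 0.838 to 1.04% of all transcripts on this scale.

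**Figure D3:**
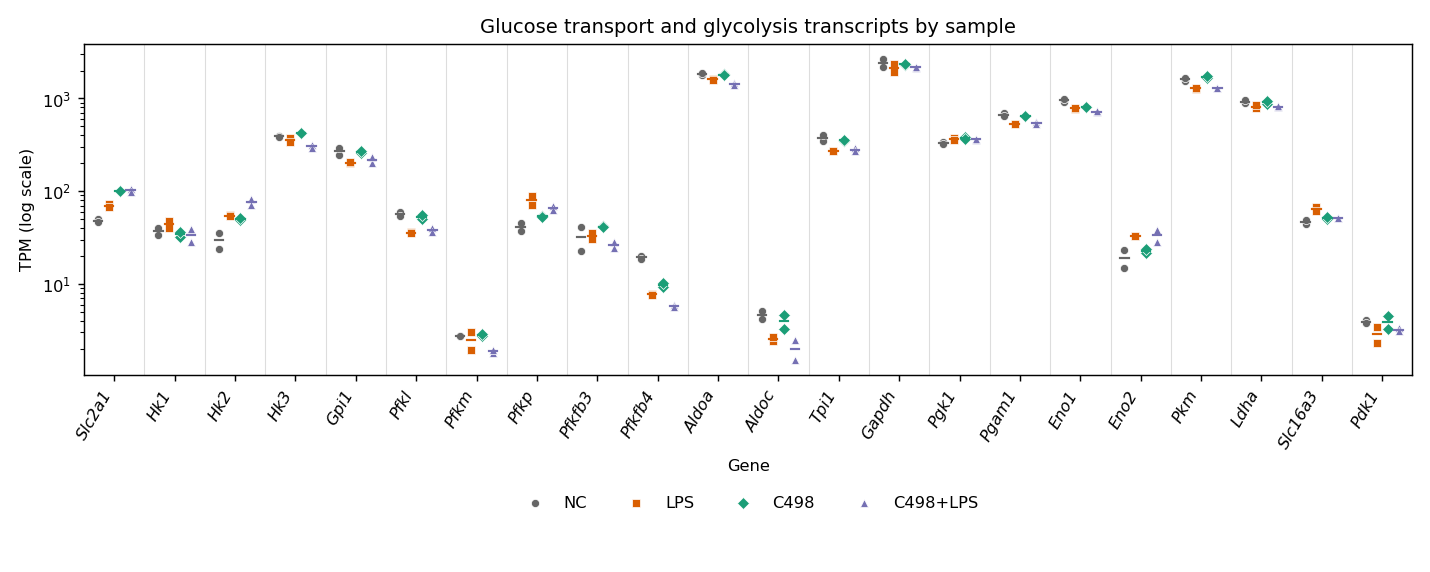
Each point is the TPM of 1 sample on a log axis, with a short bar at the group mean, for the 22 glycolysis genes ordered from glucose entry to lactate export and Pdk1. All groups stand apart in Hk2, Pfkp and Pfkfb4, while Gapdh, Pgk1 and Ldha keep to a narrow band. In Slc2a1 only C498 and C498+LPS overlap, and in Pfkl only NC and C498.

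C498+LPS against C498 called 5 glycolysis genes, all lower (Hk3, Pfkl, Pfkfb4, Aldoa and Pkm), and in the HIF-1 group Ndrg1 higher and Vegfa and Mxi1 lower. Over all tested genes 4.51% were higher and 11.7% lower, and 5.64% were called with a fold change of at least 2. This direction in the glycolysis group depended on the scaling: with samples centred on their median gene 3 genes were called and all were higher, Hk2 (0.81, adjusted p = 0.00511), Pfkp (0.51, adjusted p = 0.0239) and Eno2 (0.73, adjusted p = 0.0282), and 0 were lower. With quantile normalization 2 were higher and 7 lower. In the HIF-1 group centring gave 2 higher (Hif1a and Ndrg1) and 1 lower (Vegfa). Without either NC sample 9 glycolysis genes were called and without either LPS sample 2. Without either C498 sample, or without C498+LPS replicate 2, no glycolysis gene was called, and without C498+LPS replicate 1 there was 1; the HIF-1 group had 0 calls without either C498 sample and 1 without either C498+LPS sample.

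Both C498 comparisons called the same 6 genes higher: Slc2a1, Egln3, Vegfa, P4ha2, Ndrg1 and Ddit4. They compare different samples but share 1 estimate of the spread from all 8 samples, so their calls are not independent. Over all tested genes 5.8% were higher in both, and 3.25% were lower in both, against 0 of the 33. Both LPS comparisons, which share the same estimate of the spread, called Ndrg1 higher and Pfkl, Pfkfb4, Pkm, Vegfa and Mxi1 lower. Of all tested genes 4.02% were higher in both and 9.36% lower in both. In limma's interaction of C498 and LPS, 0 of the 33 genes passed, while 0.492% of tested genes did; at an unadjusted p under 0.05 there were 5 of 22 glycolysis genes and 1 of 11 HIF-1 group genes, Mxi1, against 11.1% of all tested genes. The alternative fits of the interaction also called 0 of the 33.

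**Figure D4:**
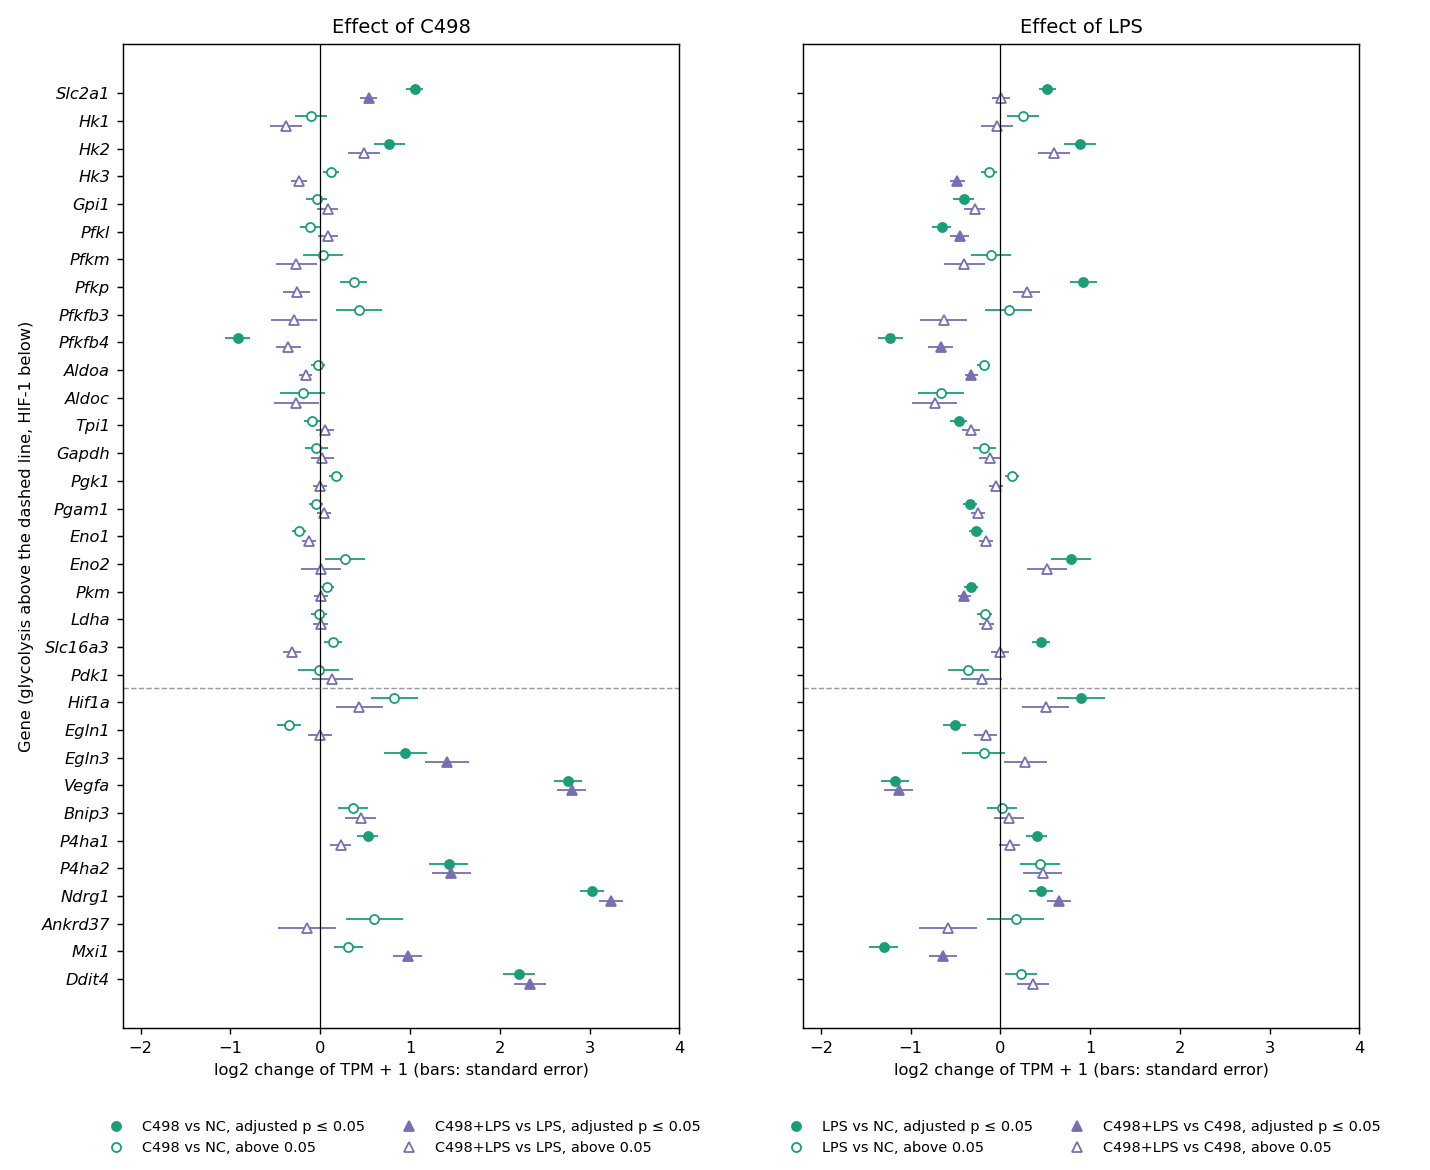
Points give the log2 change of TPM + 1 with its standard error for all 33 genes, for C498 on the left (without and with LPS) and LPS on the right (without and with C498), filled where the adjusted p is at most 0.05. Vegfa, Ndrg1 and Ddit4 lie beyond 2 in both C498 comparisons, while most glycolysis genes lie near 0.

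Genes next to these in the pathways came from lists drawn up with earlier results of these data known. Of 33 further symbols of HIF-1 targets, 27 were tested (Ero1l, an older name of Ero1a, is 1 of those not found); C498 raised 13 and lowered 1 against NC, where 9.29% and 6.19% of all tested genes were called, and raised 9 and lowered 0 against LPS, where 9.08% and 7.7% were. With samples centred these were 10 and 1, and 9 and 0. LPS raised 5 and lowered 8, against 9.84% and 19.8% of all tested genes, or 7 and 7 with centring. Plod2 (lysyl hydroxylase) rose in C498+LPS against LPS from 5.69 and 4.42 to 20.8 and 23.95 TPM (1.95 ± 0.19, adjusted p = 0.00138), and Loxl2 (a lysyl oxidase relative) from 5.8 and 5.48 to 15.6 and 22.4 TPM (1.57 ± 0.22, adjusted p = 0.00427). Both are matrix-related genes that fibroblasts also express, and the fibroblast marker sum rose in the same samples; their separate part was not tested.

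With LPS against NC, Ak4 (adenylate kinase) rose from 4.04 and 1.27 to 16.5 and 17.2 TPM (2.40 ± 0.41, adjusted p = 0.00535) and Lox from 14.1 and 7.52 to 48.8 and 43.3 TPM (2.05 ± 0.25, adjusted p = 0.00136). Ppfia4 fell from 6.99 and 6.28 to 0.73 and 0.52 TPM (-2.23 ± 0.22, adjusted p = 0.000509), Zfp395 from 4.18 and 2.66 to 0.25 and 0.79 TPM (-1.54 ± 0.28, adjusted p = 0.00661), and Tfrc, the transferrin receptor, from 82.7 and 55.3 to 40.8 and 37.2 TPM (-0.78 ± 0.18, adjusted p = 0.018). Genes of this list thus passed the test in both directions with LPS. The Tfrc call was lost without either LPS sample (adjusted p up to 0.108). Leaving out 1 sample at a time moved the number called in this list between 8 and 14 in LPS vs NC, 4 and 17 in C498 vs NC, and 4 and 13 in C498+LPS vs LPS.

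Of 14 HIF subunits and regulators, 12 were tested. LPS raised Cited2, which competes with HIF-1α for coactivators, from 28.94 and 28.93 to 50.6 and 46.02 TPM (0.72 ± 0.11, adjusted p = 0.00295) and lowered Epas1 (HIF-2α) from 16.6 and 10.6 to 4.36 and 4.57 TPM (-1.39 ± 0.22, adjusted p = 0.00382). Egln2 was lower in C498+LPS than in LPS alone, going from 48.9 and 49.9 to 38.4 and 33.8 TPM (-0.44 ± 0.12, adjusted p = 0.046), a call lost without any 1 sample of the LPS, C498 or C498+LPS groups (adjusted p up to 0.219). C498 alone was called in 3 of the 12, 1 higher and 2 lower (9.29% and 6.19% of all tested genes), or 2 higher and 1 lower with centring, and without 1 sample the count ran from 1 to 6.

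Of 18 further genes of glucose uptake and glycolysis, 11 were tested, and LPS raised 1 and lowered 6, against 9.84% and 19.8% of all tested genes. With centring 1 was higher and 3 were lower, and without 1 sample the count ran from 3 to 7. The 1 that rose was Slc2a6, a lysosomal sugar transporter of inflammatory macrophages, from 103.9 and 109.2 to 367.1 and 351.9 TPM (1.75 ± 0.11, adjusted p = 5.9e-05). In C498+LPS it was at 178 and 149.05 TPM, below LPS alone (-1.14 ± 0.11, adjusted p = 0.00122), the opposite direction to Slc2a1 in the same samples. Slc2a6 was also called lower in C498 than in NC, at 75.5 and 70.6 TPM, and higher in C498+LPS than in C498. The interaction called 0 genes of this list. Slc16a1, the lactate carrier MCT1, rose from 7.94 and 7.25 in LPS to 25.31 and 25.25 TPM in C498+LPS (1.61 ± 0.20, adjusted p = 0.00295). The largest falls with LPS were in Slc2a9 (12.5 and 9.52 to 4.64 and 2.62 TPM, -1.40, adjusted p = 0.0112), Bpgm (6.19 and 6.59 to 2.12 and 2.41 TPM, -1.18, adjusted p = 0.00344) and Slc2a8 (8.58 and 9.61 to 3.65 and 4.97 TPM, -0.94, adjusted p = 0.0131). The Slc2a9 call was lost without LPS replicate 2 and that of Slc2a8 without LPS replicate 1 and with centring (adjusted p up to 0.0925).

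All 8 genes of the pentose phosphate pathway, the branch that makes NADPH, were tested; LPS lowered 5 and raised 0, and C498+LPS was lower than LPS in 3, where 19.8% and 7.7% of all tested genes were lower. In C498 against NC limma called 0, against 9.29% higher and 6.19% lower of all tested genes, with 4 at an unadjusted p under 0.05 (32% of all tested genes) and 2 called lower with centring. With LPS, H6pd changed by -0.90 (32.7 and 25.8 to 15.4 and 14.8 TPM, adjusted p = 0.0114), Pgls by -0.62 (189.8 and 219.9 to 126.2 and 139.96 TPM, adjusted p = 0.00637) and G6pdx by -0.46 (166.4 and 162.4 to 125.6 and 113.5 TPM, adjusted p = 0.00921). C498+LPS lay below LPS for Pgd (440.9 and 464.3 to 344.9 and 321.7 TPM, -0.44, adjusted p = 0.0119), G6pdx (93.9 and 88.4 TPM, -0.39, adjusted p = 0.028) and Tkt (256.2 and 268 to 209.8 and 219.3 TPM, -0.29, adjusted p = 0.0463). The H6pd call was lost without either LPS sample (adjusted p up to 0.0727), and the Pgls and G6pdx calls with LPS were lost with centring and without 1 LPS sample (adjusted p up to 0.122 and 0.113). In C498+LPS against LPS the Tkt call was lost in 11 of 16 alternatives (adjusted p up to 0.227), the G6pdx call in 8 (up to 0.157) and the Pgd call in 3 (up to 0.09). With centring 1 and 2 calls were left, all lower, and without 1 sample the counts ran from 1 to 6 and from 0 to 3.

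Around pyruvate, 12 of 13 genes were tested, and LPS raised 1 and lowered 5, against 9.84% and 19.8% of all tested genes, or 1 and 2 with centring. Pdk2, a kinase of pyruvate dehydrogenase, fell from 4.98 and 7.2 to 0.41 and 0.83 TPM (-2.12 ± 0.30, adjusted p = 0.00261), and Pdp1, the opposing phosphatase, from 17.7 and 12.8 to 6.01 and 6.97 TPM (-1.11 ± 0.20, adjusted p = 0.00597). Dlat changed by -0.59 (32.6 and 27.8 to 16.8 and 23.03 TPM, adjusted p = 0.0407) and Dld by 0.48 (60.4 and 46.2 to 77.05 and 70.9 TPM, adjusted p = 0.041). Neither is firm: the Dlat call was lost in 12 of 16 alternatives, centring and quantile normalization among them (adjusted p up to 0.213), and the Dld call in 10 (adjusted p up to 0.19). Leaving out 1 sample left 1 to 5 calls; Pdk2 was kept in every such run, and Pdp1 was lost without LPS replicate 1 (adjusted p up to 0.056). No gene of this list was called in C498+LPS against LPS by limma, and 0 had an unadjusted p under 0.05, against 31.2% of all tested genes.

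Of 14 genes of glycogen handling and gluconeogenesis, 11 were tested; LPS lowered 7 and raised 0, where 19.8% of all tested genes were lower. In limma C498 called 0 in either comparison, where 9.29% and 9.08% of all tested genes were higher and 6.19% and 7.7% lower. At an unadjusted p under 0.05 there were 2 and 3, against 32% and 31.2% of all tested genes, and with centring 2 were lower in each. Pck2 went from 16.5 and 17.4 to 8.65 and 9.01 TPM (-0.87, adjusted p = 0.0104) and Pygb, a glycogen phosphorylase, from 20.8 and 17.7 to 10.8 and 9.61 TPM (-0.85, adjusted p = 0.00579). With centring 6 LPS calls were left, all lower, and without 1 sample the count ran from 0 to 8.

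The glucose-responsive arrestins parted with LPS. Arrdc4 rose from 35.6 and 33.9 to 72.4 and 70.7 TPM (1.02 ± 0.12, adjusted p = 0.00104), and Txnip changed from 89.1 and 92.7 to 67.95 and 67.7 TPM (-0.42 ± 0.10, adjusted p = 0.0195), a call lost without either LPS sample and with centring (adjusted p up to 0.238). Txnip, an inhibitor of glucose uptake and thioredoxin, was lower in C498+LPS than in LPS, at 27.3 and 24.3 TPM (-1.36 ± 0.10, adjusted p = 0.000598). It was also called lower in C498 than in NC, at 44.9 and 43.1 TPM.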

How the data were processed

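The authors deposited 1 table of TPM per gene for 8 samples; per the labels and the methods of the study, reads were trimmed with fastp, aligned with HISAT2, assembled with StringTie and quantified with RSEM. Versions, genome build, annotation and the use of strand in counting are not given in the sources used here. From these TPM values, log2(TPM + 1) was fitted with limma 3.58.1 in R 4.3.3, 1 mean per group over all 8 samples, with a variance trend, for the 12189 genes with a mean of at least 1 TPM. Adjusted p-values are Benjamini-Hochberg values over all tested genes within a comparison. The study's own tests were made with DESeq2 on counts, which TPM are not. The fit was tested on simulated data; a gene that was not called is not thereby shown to be unchanged. TPM gives no depth, so no counting error could be computed. The 33 genes and the further lists were chosen with earlier results of these data known. All 33 genes are accounted for; of each further list, up to 3 called genes per direction are named, those with the largest change with LPS alone, and likewise for C498+LPS against LPS, except 2 that are not reported here. Gene positions and exon overlaps came from GENCODE on GRCm38, promoter windows from RefSeq on GRCm38.p6. Alternatives were another pseudocount, other filters, 2 other scalings, only the groups compared, no variance trend, a replicate block, a fold threshold and each sample left out.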

Additional observations from a re-analysis of the deposited data

How the results depend on the processing

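Of 42 called changes of the 33 genes, 12 kept their call in all 16 alternatives that leave the fold threshold aside (Pfkl, Pfkp, Pfkfb4, Vegfa and Mxi1 with LPS; Slc2a1, Vegfa, Ndrg1 and Ddit4 with C498; Vegfa, Ndrg1 and Ddit4 in C498+LPS against LPS), 30 lost it in at least 1, and 0 turned direction; of the 12, Pfkl and Pfkp were under 2-fold. Glycolysis calls in LPS vs NC went from 12 to 7 with centring, 4 with only the groups compared and 1 at a fold change of at least 2. HIF-1 group calls there went from 6 to 3 with no filter, 2 with only the groups compared, 3 with no variance trend and 2 at the fold threshold. In C498 vs NC, glycolysis calls went from 3 to 1 with only the groups compared and 1 at the fold threshold, and HIF-1 group calls from 6 to 3 with only the groups compared. In C498+LPS vs LPS, glycolysis calls went from 1 to 3 with quantile normalization and 0 at the fold threshold. In C498+LPS vs C498, glycolysis calls went from 5 to 3 with centring, 9 with quantile normalization, 2 with no variance trend and 0 at the fold threshold, and HIF-1 group calls from 3 to 1 at the fold threshold. Centring removes a fall of the median gene, fewer samples were used with only the groups compared, and the cause of the other moves was not tested. Leaving out 1 sample at a time gave 3 to 13 glycolysis and 2 to 6 HIF-1 group calls in LPS vs NC, 1 to 5 and 3 to 8 in C498 vs NC, 0 to 3 and 3 to 7 in C498+LPS vs LPS, and 0 to 9 and 0 to 4 in C498+LPS vs C498; a group then left with 1 sample is assumed to vary like the others. The interaction had 0 calls throughout.

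With the replicate number as a block, the glycolysis and HIF-1 group calls were 12 and 6 in LPS vs NC, 3 and 7 in C498 vs NC, 1 and 6 in C498+LPS vs LPS, and 7 and 3 in C498+LPS vs C498. The deviations of replicate 1 samples from their group means correlated at 0.04 to 0.17 between groups, and no label pairs the samples, so they share only a number. Low genes such as Ankrd37, Pfkm and Pdk1 are the least certain, and depth could not be read from TPM.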
